A study of Mus musculus with 12 samples.

Results

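Malat1, Neat1, Kcnq1ot1, Gas5, Snhg1, Snhg8, Snhg12 and Meg3 are long noncoding RNAs that stay in the nucleus or carry small nucleolar RNAs (snoRNAs) in their introns. They were taken by symbol, 8 of the 50433 gene rows in the table of renal tubular epithelial cells (TECs) and 8 of the 50434 rows in the table of blood neutrophils (PMN). The study asked what glutamine does to these cells in acute kidney injury after ischemia-reperfusion injury (IRI). All libraries came from wildtype male C57BL/6J mice aged 8 to 12 weeks whose renal pedicles were both clamped for 35 minutes. The 4 groups were TECs and PMN of mice given glutamine as an alanyl-glutamine dipeptide (0.5 g per kg, intravenously) or saline vehicle, with 3 libraries in each and no sham library. Cells were isolated 24 hours after IRI, and TECs were taken by a sort for Prominin-1 that excluded CD45-bearing cells. For the TEC experiment the glutamine is stated to have been given 15 minutes after reperfusion, and for the PMN the time is not given in the sources used here.

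Malat1 lies in nuclear speckles, domains rich in splicing factors, and Neat1 is the scaffold around which paraspeckles assemble. Kcnq1ot1 and Meg3 come from imprinted domains, where 1 parental copy of a gene is silent, and Kcnq1ot1 runs antisense through Kcnq1 and silences neighbouring genes on the same chromosome. Gas5, Snhg1, Snhg8 and Snhg12 are snoRNA hosts: the introns are trimmed to snoRNAs that guide RNA modification, while the spliced transcripts of several hosts are removed by nonsense-mediated decay during translation. Many such hosts begin, like the messenger RNAs of ribosomal proteins, with a terminal oligopyrimidine tract, a C followed by further pyrimidines, which ties them to growth signalling.

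Neat1 was higher with glutamine in both cell types. In TECs it took 2.23 times the vehicle share of counts and in PMN 1.74 times, and in neither did any glutamine library fall as low as a vehicle library. Groups lay apart in this direction for 5.61% of the genes tested in TECs and 5.65% in PMN. Kcnq1ot1 was likewise higher in PMN without overlap of the groups and 1.47 times as high in TECs with overlap. Malat1, the 4 snoRNA hosts and Meg3 had overlapping groups in both. After Benjamini-Hochberg (BH) adjustment over all genes of the quasi-likelihood fit in edgeR, 0 of the 8 RNAs tested in TECs and 0 of the 7 tested in PMN had an adjusted p below 0.05, as had 0% of the 14734 and of the 10130 genes tested. DESeq2 called Neat1 in both tables, 1 of the 8 and 1 of the 7, where it called 2.09% of all genes in TECs and 2.34% in PMN.

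The TEC libraries held 5397445 to 10223546 estimated counts, glutamine replicate 2 being the shallowest, and the PMN libraries 20225151 to 21878357. Levels are given as CPM, counts divided by the library's total and multiplied by 1000000. At least 1 count was seen for 19234 to 22146 genes per TEC library but for 11313 to 13110 per PMN library, so low genes in PMN are often present in some libraries and near 0 in others. The sort marker Prom1 lay between 70.3 and 80.1 CPM in the TEC libraries and Ptprc, the gene of CD45, between 0.101 and 2.57 CPM. The PMN libraries held neutrophil markers (S100a8 at 6511 to 26050 CPM) but also genes of other leukocytes, with Cd74 at 3831 to 10587 CPM. PMN vehicle replicate 1 carried 990 CPM of the tubular gene Umod, and PMN vehicle replicate 2 carried 621 CPM of the endothelial gene Kdr, which was at 0 in the other 5 PMN libraries. The labels do not say whether each library came from a separate mouse, so p-values measure only the spread between these libraries, which may be technical.

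Malat1 and Neat1 are neighbours on chromosome 19 of GRCm38, both on the minus strand and both single-exon in their longest GENCODE M21 transcript. Malat1 spans chr19:5795690-5802672 (6983 bases) and Neat1 spans chr19:5824708-5845478 (20771 bases). Both RNAs are known to end in a U-rich and A-rich structure that protects the 3′ end after RNase P cleavage, in place of a poly(A) tail. The sequences below, from GENCODE M21 transcripts and written as DNA from 5′ to 3′, are shown because the libraries were made by reverse transcription from poly(A), so that the form of the 3′ end bears on what could be counted. Capitals mark the U-rich and A-rich tracts.
Malat1, chr19:5795973-5796076, minus strand: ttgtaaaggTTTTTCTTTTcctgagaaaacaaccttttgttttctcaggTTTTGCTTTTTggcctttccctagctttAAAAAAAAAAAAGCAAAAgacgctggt
Neat1, chr19:5824708-5824769, minus strand: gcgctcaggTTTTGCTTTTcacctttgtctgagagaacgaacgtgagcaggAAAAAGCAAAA
The Neat1 stretch is the end of the long transcript, and the Malat1 stretch lies 283 bases before the annotated end. The letters TTTNCTTT followed within 150 bases by AAAGCAAA, read on the transcript strand, were found in 2 of the 8 RNAs, Malat1 and Neat1, and in 0.516% of the 55450 genes of the transcript file. A shorter Neat1 transcript of 3004 bases shares the 5′ part of the locus and is known to be polyadenylated. Its last 40 bases hold the polyadenylation hexamer AATAAA, in capitals.
Neat1, short transcript, chr19:5842307-5842346, minus strand: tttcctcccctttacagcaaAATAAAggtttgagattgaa
The tables give 1 row for the gene, so that the 2 forms of Neat1 cannot be told apart in these values.

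Neat1 stood at 1076, 962 and 1068 CPM in TEC vehicle replicates 3, 4 and 5. It stood at 2477, 2878 and 1559 CPM in TEC glutamine replicates 1, 2 and 3. The vehicle libraries lay close together, the glutamine libraries were spread, and the groups did not overlap. The means were 1036 ± 63.5 and 2305 ± 676 CPM (SD, n = 3), a difference of 1269 CPM (two-sided exact permutation p = 0.1, which 3 libraries against 3 cannot go below). The log2 fold change was 1.32 (standard error 0.25), with a BH-adjusted p of 0.148 in the edgeR quasi-likelihood fit (unadjusted 0.000234), the 23rd smallest p of 14734. DESeq2's Wald test gave 1.33 with an adjusted p of 0.000175. Neat1 and Kcnq1ot1 stand in the study's own list of changed TEC genes, which was drawn up on these same libraries.

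In the TEC table, 12.7% of the genes reached an unadjusted p below 0.05 in edgeR (1878 genes) and 2.09% an adjusted p below 0.05 in DESeq2 (308 genes), while limma-voom called 0. Against these shares, 2 of the 8 RNAs, Neat1 and Kcnq1ot1, had an unadjusted p below 0.05, and 1 was called by DESeq2. Groups that did not overlap, in CPM, were found for 5.61% of genes in the higher direction, with 1 of the 8 RNAs among them, and for 15.4% in the lower direction, with 0 of the 8. On the TMM scale that edgeR uses, the split was 9.01% higher and 9.81% lower, and the glutamine libraries of Neat1 and Kcnq1ot1 then both lay above the vehicle libraries. The median log2 fold change of all tested genes moved from 0.01 to -0.16 between TMM and library totals alone, so that CPM ratios in TECs sit lower than the fitted fold changes. Predicted genes with Gm or Rik names, another part of the annotation rich in noncoding transcripts, made up 20.2 ± 2.91% of the vehicle and 27.9 ± 2.29% of the glutamine libraries' counts (SD, n = 3), without overlap. With predicted, Rik and sensory receptor genes removed before the fit, the log2 fold change was 1.37 for Neat1 and 0.79 for Kcnq1ot1. As a share of the counts left without these and the mitochondrially encoded genes, the difference was 1894 CPM for Neat1 and 66.2 CPM for Kcnq1ot1 (two-sided exact permutation p = 0.1 for each), against 1269 and 38.9 CPM of all counts.

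**Figure D1:**
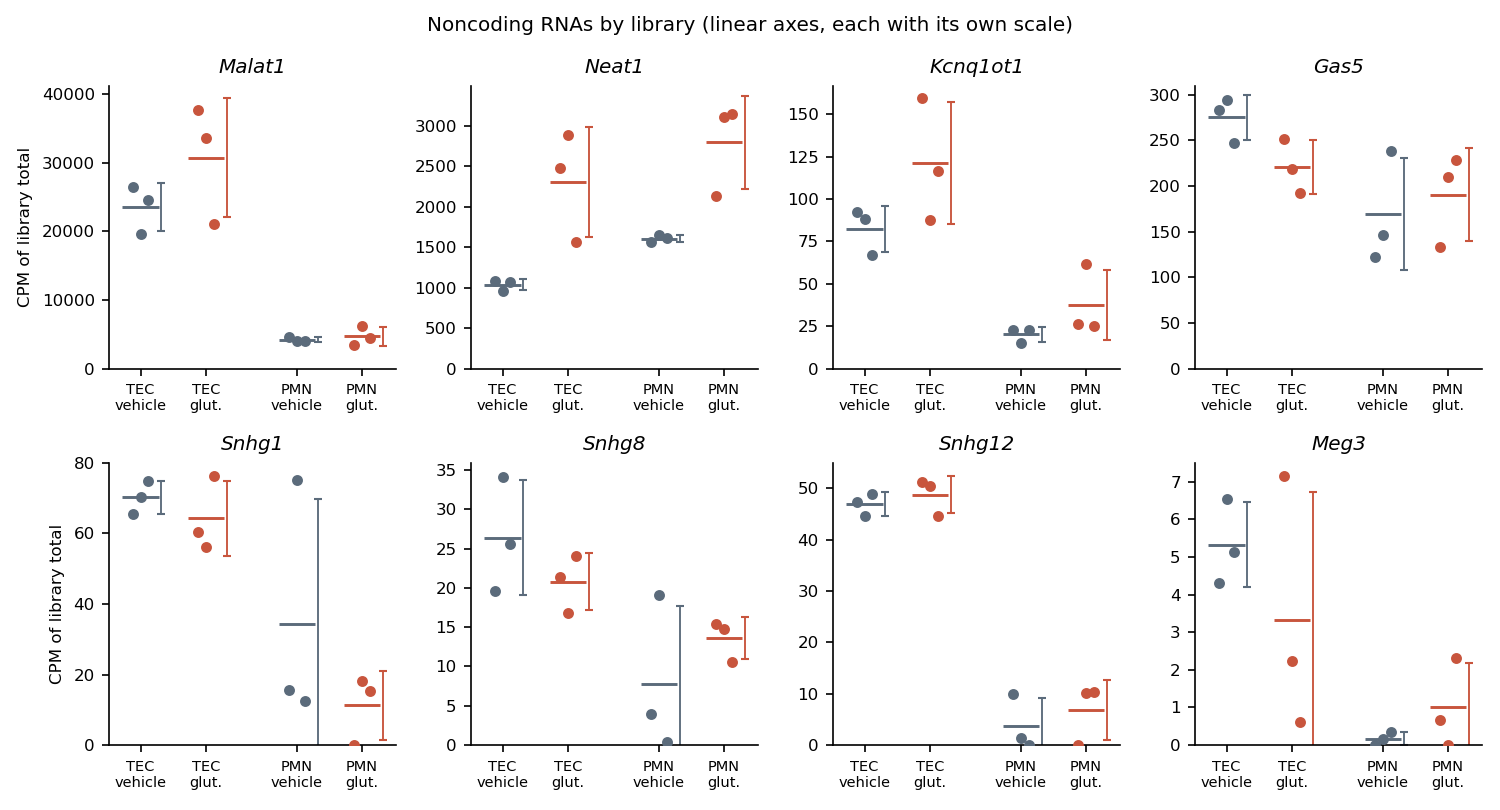
Level of each RNA in CPM of the library total (linear vertical axes, a scale per panel) in TEC and PMN libraries with vehicle (grey) and glutamine (red). Points are libraries, horizontal lines group means and bars 1 SD (n = 3). Neat1 separates the groups in both cell types, and the low snoRNA hosts are scattered in PMN.

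In PMN, Neat1 stood at 1556, 1645 and 1611 CPM in vehicle replicates 1, 2 and 3. In glutamine replicates 1, 2 and 3 it stood at 2127, 3110 and 3139 CPM. As in TECs, the vehicle libraries were close together and every glutamine library was above them. The means were 1604 ± 44.8 and 2792 ± 576 CPM (SD, n = 3; two-sided exact permutation p = 0.1). The log2 fold change was 0.83 (standard error 0.18), with a BH-adjusted p of 0.713 in the edgeR quasi-likelihood fit (unadjusted 0.00252), the 30th smallest p of 10130. DESeq2 gave 0.76 with an adjusted p of 0.00110 and limma-voom an adjusted p of 0.175. Among PMN genes 3.42% had an unadjusted p below 0.05 in edgeR (346 genes), with 1 of the 7 RNAs tested among them, and 2.34% were called by DESeq2 (237 genes), again with 1 of the 7. limma-voom called 0 genes at an adjusted p below 0.05. Groups that did not overlap in CPM were found for 5.65% of genes in the higher direction, with Neat1 and Kcnq1ot1 among them, and for 4.91% in the lower direction, with 0 of the 7. Left out in turn, the 6 PMN libraries gave Neat1 log2 fold changes from 0.73 to 0.93, among them 0.79 without vehicle replicate 1, which carries Umod, and 0.83 without vehicle replicate 2, which carries Kdr. In bulk RNA of sorted cells, a change in the make-up of the cells and a change in RNA per cell cannot be told apart.

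Malat1 took the most counts of the 8 in every library. In TEC vehicle replicates 3, 4 and 5 it stood at 26469, 19664 and 24546 CPM. In glutamine replicates 1, 2 and 3 it stood at 37643, 33547 and 21008 CPM. Replicates 1 and 2 were above all vehicle libraries and replicate 3 was within their range. The means were 23560 ± 3509 and 30733 ± 8667 CPM (SD, n = 3; two-sided exact permutation p = 0.3), so that Malat1 took 1.97 to 3.76% of a TEC library's counts. Single libraries moved the difference of 7173 CPM, to 3718 CPM without glutamine replicate 1 and to 12035 CPM without glutamine replicate 3 (two-sided exact permutation p = 0.6 and 0.1). The log2 fold change was 0.55 (standard error 0.25, BH-adjusted p = 0.398, edgeR quasi-likelihood fit). In PMN, Malat1 stood at 4636, 4077 and 3978 CPM with vehicle and at 3456, 6191 and 4503 CPM with glutamine. The groups overlapped (two-sided exact permutation p = 0.8), and the log2 fold change of 0.18 (standard error 0.20) turned to -0.07 without glutamine replicate 2, which held the highest value.

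Because Malat1 and Neat1 are nuclear, share chromosome 19 and were counted in the same libraries, Neat1 was also read against Malat1 within each library, a ratio chosen after the values were seen that does not depend on the library total. In TECs, Neat1 counts were 4.07, 4.89 and 4.35% of Malat1 counts with vehicle and 6.58, 8.58 and 7.42% with glutamine. The glutamine library with the lowest Neat1 level, replicate 3, was by this measure between replicates 1 and 2. The means were 4.44 ± 0.421% and 7.53 ± 1.004% (SD, n = 3; two-sided exact permutation p = 0.1). In PMN the ratio was 33.6, 40.4 and 40.5% with vehicle and 61.5, 50.2 and 69.7% with glutamine, with means of 38.1 ± 3.96% and 60.5 ± 9.78% (SD, n = 3; two-sided exact permutation p = 0.1). The groups did not overlap in either cell type. The ratio restates within each library the separate values of the 2 RNAs given above and is not independent of them.

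**Figure D2:**
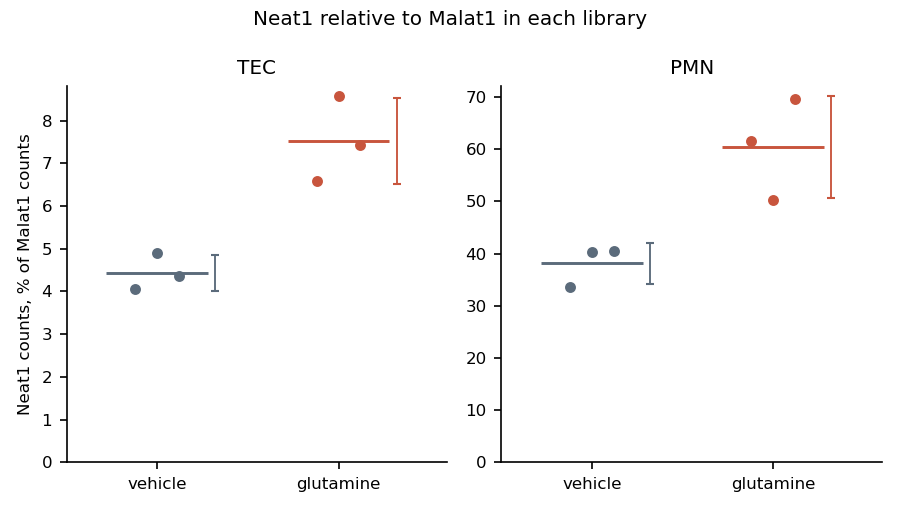
Neat1 counts as a percentage of Malat1 counts in each library (vertical axes from 0, a scale per cell type), for vehicle (grey) and glutamine (red). Points are libraries, lines means and bars 1 SD (n = 3). In TECs the glutamine libraries sit at 6.58 to 8.58% against 4.07 to 4.89% with vehicle, and in PMN at 50.2 to 69.7% against 33.6 to 40.5%.

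Of 13 listed genes that flank Malat1 and Neat1, 12 were tested in TECs, and 7 had a positive and 5 a negative log2 fold change, with a median of 0.05 beside 0.01 for all genes, which became -0.12 with 5 positive when libraries were scaled by their totals alone. None had an unadjusted p below 0.05. The 3 most abundant were Fau, which encodes a ribosomal protein fused to a ubiquitin-like domain, at -0.08, the Cdc42 effector gene Cdc42ep2 at 0.01 and the mitochondrial carrier gene Slc25a45 at 0.18. In PMN, 9 were tested, 7 with a positive log2 fold change and a median of 0.76 beside 0.00020 for all genes, and again none had an unadjusted p below 0.05. Proteins of the paraspeckle were mostly on the negative side in TECs, 13 of 19 tested with a median of -0.14, or 17 of 19 with a median of -0.30 on library totals. Among them Hnrnpk was at -0.29 and Hnrnpa1 at -0.26, RNA-binding proteins with adjusted p of 0.539 and 0.616 in edgeR's quasi-likelihood test, and 1 gene, Cpsf6 of the 3′ end cleavage machinery, had an unadjusted p below 0.05 (log2 fold change -0.56). In CPM, 6 of the 19 were lower and 0 higher without overlap of the groups, beside 15.4% and 5.61% of all TEC genes. In PMN, 10 of 17 tested were positive (median 0.47) and 0 had an unadjusted p below 0.05. Nuclear speckle proteins were positive for 15 of 20 in TECs with a median of 0.11, but for 9 of 20 with a median of -0.05 on library totals. By unadjusted p below 0.05, which 12.7% of all TEC genes had, 3 were higher and 1 lower: the SR-related genes Srsf11 at 0.93 and Srrm1 at 0.46 and the kinase Clk1 at 0.46, against the splicing factor Srsf1 at -1.05, which alone of the 20 was called by DESeq2. The most abundant of this list beside Srsf11 were Son, a speckle scaffold, at 0.29 and Luc7l3 at 0.18. In PMN, 11 of 20 were positive (median 0.29), with 0 at an unadjusted p below 0.05.

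Kcnq1ot1 spans chr7:143203458-143296549 on the minus strand of GRCm38 and is annotated as a single unspliced exon of 93092 bases. Its transcript holds 10 runs of 10 or more A, Meg3 holds 6, Malat1 and Snhg12 hold 1 each and the other members none, and 7.18% of all GENCODE M21 transcripts hold any. In TEC vehicle replicates 3, 4 and 5 Kcnq1ot1 stood at 92.1, 88.3 and 66.8 CPM. In glutamine replicates 1, 2 and 3 it stood at 159, 87.7 and 117 CPM. Replicate 2, the shallowest library with 473 counts of this RNA, fell within the vehicle range. The means were 82.4 ± 13.6 and 121 ± 36.1 CPM (SD, n = 3; two-sided exact permutation p = 0.3). The difference of 38.9 CPM became 19.8 CPM without glutamine replicate 1 and 55.7 CPM without glutamine replicate 2 (two-sided exact permutation p = 0.5 and 0.1). The log2 fold change was 0.73 (standard error 0.24), with a BH-adjusted p of 0.257 in the edgeR quasi-likelihood fit (unadjusted 0.0107), and DESeq2 gave an adjusted p of 0.102.

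In PMN, Kcnq1ot1 stood at 22.7, 15.2 and 22.4 CPM with vehicle and at 26.3, 61.5 and 24.9 CPM with glutamine. All glutamine libraries were above the vehicle libraries, replicates 1 and 3 by little and replicate 2 by far. The means were 20.1 ± 4.29 and 37.6 ± 20.7 CPM (SD, n = 3; two-sided exact permutation p = 0.1), and the log2 fold change of 0.91 had a standard error of 1.06 (edgeR). Without glutamine replicate 2 the difference of the means was 5.52 in place of 17.5 CPM and the log2 fold change 0.38. The strand setting of the counting is not given in the sources used here, so reads of Kcnq1 introns and of Kcnq1ot1 may not be separable. Kcnq1 itself, a potassium channel gene, was low in TECs, at 5.15 ± 1.73 against 8.21 ± 2.31 CPM with glutamine (SD, n = 3). Of 12 genes of the imprinted domain, 9 were tested in TECs, 6 with a positive log2 fold change and a median of 0.11 (4 and -0.06 on library totals), and 0 had an unadjusted p below 0.05. Its 3 most abundant genes were the transporter gene Slc22a18 at 0.11, the tetraspanin gene Cd81 at -0.09 and the histone chaperone gene Nap1l4 at -0.13, while Cdkn1c and Phlda2, which the maternal copy expresses, were at 0.39 and -0.83 with standard errors of 0.53 and 0.51. In PMN, 4 were tested, 2 in each direction.

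The starts of the 4 snoRNA hosts are shown because the tract at the first bases sets apart transcripts of this class. Each line gives 20 bases before and 40 bases from the start in the RefSeq promoter table (GRCm38.p6), with capitals for a C and at least 4 following pyrimidines that begin within 3 bases of the start.
Gas5, chr1:161035146-161035205, plus strand: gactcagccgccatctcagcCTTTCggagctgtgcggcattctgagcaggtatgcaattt
Snhg1, chr19:8723467-8723526, plus strand: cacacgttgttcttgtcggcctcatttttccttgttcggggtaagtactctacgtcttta
Snhg8, chr3:123508297-123508356, minus strand: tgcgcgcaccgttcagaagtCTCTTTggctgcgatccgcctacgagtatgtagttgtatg
Snhg12, chr4:132308658-132308717, plus strand: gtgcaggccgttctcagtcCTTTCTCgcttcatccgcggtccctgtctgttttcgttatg
Gas5, Snhg8 and Snhg12 hold such a tract, of 5, 6 and 7 bases, and Snhg1 and a further Gas5 start in the same table do not. It was found on the transcript strand in 11.5% of all 32851 windows of the table, which had entries for 7 of the 8 RNAs and none for Neat1. In GENCODE M21, 9 snoRNA loci lie inside Gas5 (chr1:161034422-161038539), 8 inside Snhg1 (chr19:8723475-8726443), 1 inside Snhg8 (chr3:123507552-123508404) and 4 inside Snhg12 (chr4:132308623-132311024), on the host's strand, and none inside the other 4 genes. The snoRNAs themselves were hardly measured: the rows of those within Snhg1 held 120 counts over all 6 TEC libraries and 0 in PMN, and those within Gas5 held 19 and 0. Introns of the longest transcript hold 3 of 9 loci in Gas5, 1 of 8 in Snhg1 and 3 of 4 in Snhg12. The other loci of these hosts, and the 1 in Snhg8, overlap an exon of that transcript. The levels below are those of the host genes, with 1 row per gene. Spliced host transcripts and those that keep introns cannot be told apart in them.

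Gas5, growth arrest-specific 5, stood at 284, 295 and 248 CPM in TEC vehicle replicates 3, 4 and 5. In glutamine replicates 1, 2 and 3 it stood at 251, 219 and 192 CPM. Glutamine replicate 1 was just above vehicle replicate 5, and otherwise the glutamine libraries were lower. The means were 275 ± 24.7 and 221 ± 29.6 CPM (SD, n = 3; two-sided exact permutation p = 0.2), and the log2 fold change was -0.15 (standard error 0.19, BH-adjusted p = 0.770, edgeR quasi-likelihood fit). It was -0.32 on library totals, -0.24 without glutamine replicate 1 and -0.06 without glutamine replicate 3. Ribosomal protein genes, whose messenger RNAs start with the same kind of tract, made up 5.05 ± 0.315% of the vehicle and 3.73 ± 0.0497% of the glutamine libraries' counts in TECs (SD, n = 3), without overlap, and their relation to the host RNAs was not tested. In PMN, Gas5 stood at 123, 146 and 239 CPM with vehicle and at 133, 210 and 228 CPM with glutamine. These groups overlapped (two-sided exact permutation p = 0.9), with a log2 fold change of 0.20 (standard error 0.43, edgeR).

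Snhg1 stood at 65.6, 70.3 and 74.8 CPM in TEC vehicle replicates 3, 4 and 5 and at 60.4, 56.1 and 76.3 CPM in glutamine replicates 1, 2 and 3. The glutamine libraries lay on both sides of the vehicle libraries (two-sided exact permutation p = 0.5). Its direction turned with the scaling, with a log2 fold change of 0.04 (standard error 0.21) on the TMM scale and of -0.12 on library totals. Snhg8 stood at 19.5, 34.1 and 25.5 CPM with vehicle and at 21.4, 16.9 and 24.1 CPM with glutamine in TECs, a log2 fold change of -0.17 (standard error 0.28). Snhg12 stood at 47.3, 44.5 and 49.0 CPM with vehicle and at 51.2, 50.4 and 44.6 CPM with glutamine, a log2 fold change of 0.22 (standard error 0.20). Both had overlapping groups, with exact permutation p-values of 0.4 and 0.5 (two-sided), and Snhg12 varied least of the 8 RNAs, relative to its mean, within the TEC vehicle group, at 46.9 ± 2.25 CPM (SD, n = 3).

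In PMN the 3 smaller hosts were patchy. Snhg1 was at 15.7, 75.1 and 12.6 CPM with vehicle and at 0.119, 18.2 and 15.4 CPM with glutamine, or 2.5 counts in glutamine replicate 1 against 1643 in vehicle replicate 2. Vehicle replicate 2, the library with Kdr, held the highest level of both Snhg1 and Snhg8. Snhg8 was at 3.95, 19.1 and 0.386 CPM with vehicle and at 15.4, 14.8 and 10.6 CPM with glutamine. Snhg12 was at 9.88, 1.37 and 0.0964 CPM with vehicle and at 0, 10.2 and 10.2 CPM with glutamine, where 0 counts allow a level of up to 0.142 CPM (3 counts, counting error only). The groups of all 3 overlapped, and the fitted standard errors of 1.81, 1.63 and 2.27 on the log2 scale exceed the log2 fold changes of -1.63, 0.85 and 0.80 (edgeR). Single libraries moved these values: with each library left out in turn they ranged from -2.20 to -0.37 for Snhg1, where -0.37 was without vehicle replicate 2, from 0.28 to 2.64 for Snhg8, where 0.28 was without vehicle replicate 3 and 2.64 without vehicle replicate 2, and from 0.22 to 3.18 for Snhg12, where 0.22 was without vehicle replicate 3 and 3.18 without vehicle replicate 1. No difference in these RNAs was detectable in PMN with this spread.

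Of 18 other snoRNA hosts listed, 15 were tested in TECs, 6 with a positive and 9 with a negative log2 fold change and a median of -0.10, or 1 and 14 with a median of -0.28 on library totals. None had an unadjusted p below 0.05. In CPM, 4 of the 15 were lower and 0 higher without overlap of the groups, beside 15.4% and 5.61% of all TEC genes. The most abundant were Snhg9 at -0.20, Snhg11 at 0.17 and Zfas1, a host antisense to Znfx1, at -0.40 (82.7 ± 11.3 against 55.5 ± 9.18 CPM, SD, n = 3; BH-adjusted p = 0.447, edgeR). In PMN, 12 were tested, with a median of 0.37, and 0 had an unadjusted p below 0.05, with Snhg3 at -0.23, Snhg15 at 0.92 and Zfas1 at 0.68 on the log2 scale. Of the factors of nonsense-mediated decay, 18 were tested in TECs, 10 positive and 8 negative with a median of 0.09, which turned to 7 positive and -0.07 on library totals. Upf2, a bridging factor of the decay complex, was at 0.72 with an unadjusted p of 0.0215 and an adjusted p of 0.311 in edgeR's quasi-likelihood test, the release factor gene Etf1 was at 0.11 and Rbm8a of the exon junction complex at -0.16. In PMN, 8 of 16 were positive, none with an unadjusted p below 0.05. The genes listed for proteins that build and carry snoRNAs were more often negative in TECs, 12 of 19 tested with a median of -0.23 beside 0.01 for all genes, or 15 of 19 with a median of -0.40 on library totals, where all genes had a median of -0.16. That list also holds nucleolin and Polr1a, which are not themselves proteins of this kind. Nop10, a core protein of the pseudouridylation particles, was at -0.66 (252 ± 60.9 against 141 ± 25.9 CPM, SD, n = 3) with a BH-adjusted p of 0.272 in edgeR. Its partner Nhp2 was at -0.46, nucleolin (Ncl) at -0.23, Nop58 of the methylation particles at 0.09 and Polr1a, the large subunit of RNA polymerase I, at 0.77. By unadjusted p below 0.05, 2 of the 19 were lower and 1 higher, a share close to the 12.7% of all TEC genes. In CPM, 6 of the 19 were lower and 1 higher without overlap of the groups, beside 15.4% and 5.61% of all TEC genes. In PMN the list had 7 positive and 9 negative genes and 0 with an unadjusted p below 0.05.

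Meg3 spans chr12:109541001-109571726 on the plus strand, with a longest transcript of 14548 bases, and hosts 2 annotated microRNA genes. It was scarce in both cell types. In TEC vehicle replicates 3, 4 and 5 it stood at 4.32, 6.55 and 5.13 CPM, and in glutamine replicates 1, 2 and 3 at 7.15, 2.22 and 0.617 CPM. The glutamine libraries included both the highest and the lowest value, the lowest resting on 6 counts (two-sided exact permutation p = 0.4). The log2 fold change was -0.52 (standard error 0.72, edgeR) and became -0.01 without glutamine replicate 3 and -1.78 without glutamine replicate 1. In PMN, Meg3 was at 0, 0.154 and 0.355 CPM with vehicle and at 0.673, 0 and 2.32 CPM with glutamine, and it did not pass the expression filter. A count of 0 allows up to 0.145 CPM in these libraries. Of 8 genes of the same imprinted domain, 4 were tested in TECs, 2 in each direction, and Wars, the tryptophanyl-tRNA synthetase gene, was at -0.53 with an unadjusted p of 0.0480 and an adjusted p of 0.387 (edgeR's quasi-likelihood test). Rian, the noncoding neighbour of Meg3, was at -0.38 and Wdr25 at 0.47, from levels below 8 CPM. In CPM, 2 of the 4 were lower, Rian among them, and 0 higher without overlap of the groups. Of all TEC genes, 15.4% were lower and 5.61% higher in this way. In PMN, Rian and Wars were tested, both with negative log2 fold changes and standard errors of 0.67 and 2.55.

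**Figure D3:**
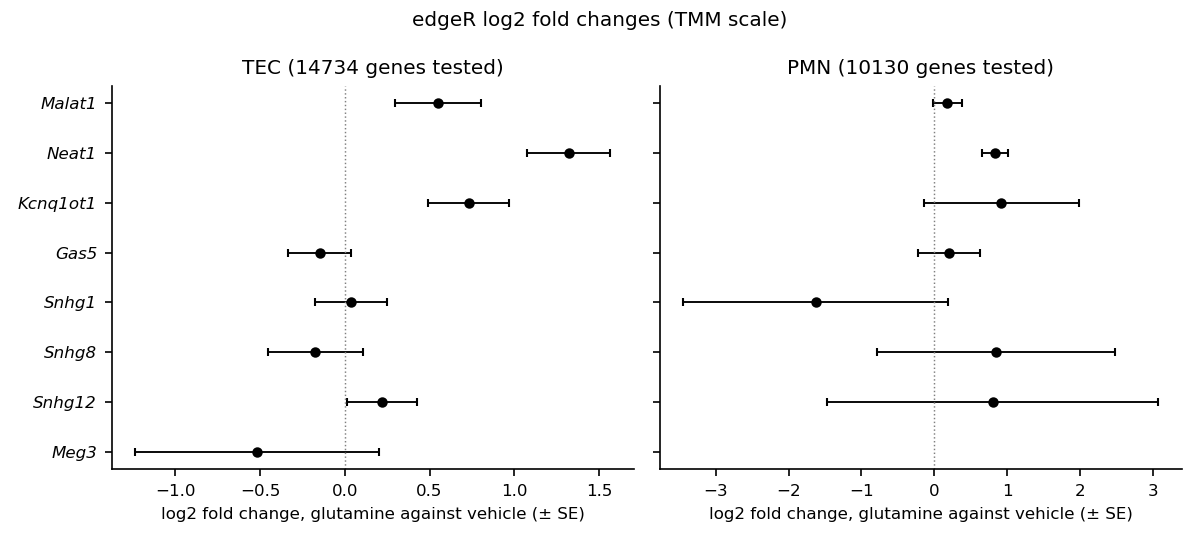
edgeR log2 fold changes, glutamine against vehicle, on the TMM scale for each RNA tested in TECs (left) and PMN (right), with bars of 1 standard error. The horizontal scales differ. Neat1 lies at 1.32 and 0.83 with standard errors of 0.25 and 0.18, and the bars of the low snoRNA hosts in PMN are far wider than in TECs.

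Per length, the order of the 8 RNAs was given as CPM per kilobase of the longest GENCODE M21 transcript, a scale that depends on which transcript is used. In TECs with vehicle, Malat1 stood first at 3374 ± 502, followed by Gas5 at 108 ± 9.67, Neat1 at 49.9 ± 3.06, Snhg8 at 34.0 ± 9.45, Snhg12 at 30.5 ± 1.46 and Snhg1 at 25.7 ± 1.69 CPM per kilobase (SD, n = 3). Kcnq1ot1 and Meg3 were far below, at 0.885 ± 0.147 and 0.367 ± 0.0777. Snhg8 overlapped both Snhg12 and Snhg1 across the 3 libraries, and the other neighbours in this order did not overlap. With glutamine, Neat1 at 111 ± 32.5 stood above Gas5 at 86.4 ± 11.6 in mean, with overlapping spreads. In PMN with vehicle, Malat1 was at 606 ± 50.8, Neat1 at 77.2 ± 2.16 and Gas5 at 66.2 ± 24.1 CPM per kilobase, the last pair overlapping, and all others were below 13. Malat1 thus took a smaller share of PMN counts than of TEC counts and Neat1 a larger one with vehicle, but the tables were made separately and cell type and table cannot be told apart.

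Other long noncoding RNAs did not follow one direction in TECs. Of 15 tested, 6 were positive and 9 negative, with a median of -0.09, and 2 had an unadjusted p below 0.05, close to the 12.7% of all TEC genes: Lncpint, a transcript induced by p53, at 1.31 and the predicted gene Gm26917 at 0.60 (264 ± 71.3 against 360 ± 51.1 CPM, SD, n = 3), with adjusted p of 0.245 and 0.359 in edgeR's quasi-likelihood test. The 2 others among the 3 most abundant were Oip5os1 at -0.02 and Mir22hg, the host of a microRNA, at 0.51. In PMN, 11 were tested with a median of -0.29. Dleu2, another microRNA host, was at 34.5 ± 4.39 against 118 ± 39.4 CPM with glutamine (SD, n = 3), 1.81 on the log2 scale, which DESeq2 called (adjusted p = 0.0147) and edgeR's quasi-likelihood test did not (unadjusted 0.0218). DESeq2 called 1 of the 11, beside 2.34% of all PMN genes. Without overlap in CPM, 2 were higher (Dleu2 and Lncpint) and 1 lower (Rian), beside 5.65% and 4.91% of all PMN genes. Lncpint was at 1.21 ± 1.86 against 40.6 ± 18.8 CPM with glutamine (SD, n = 3), 5.13 on the log2 scale (standard error 2.28, edgeR). In TECs, 1 of the 15 was higher (Lncpint) and 1 lower (Rian) without overlap in CPM, beside 5.61% and 15.4% of all TEC genes. Tug1 at -0.29, Mir22hg at -0.32 and Gm26917 at 0.24 were the most abundant in PMN.

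**Figure D4:**
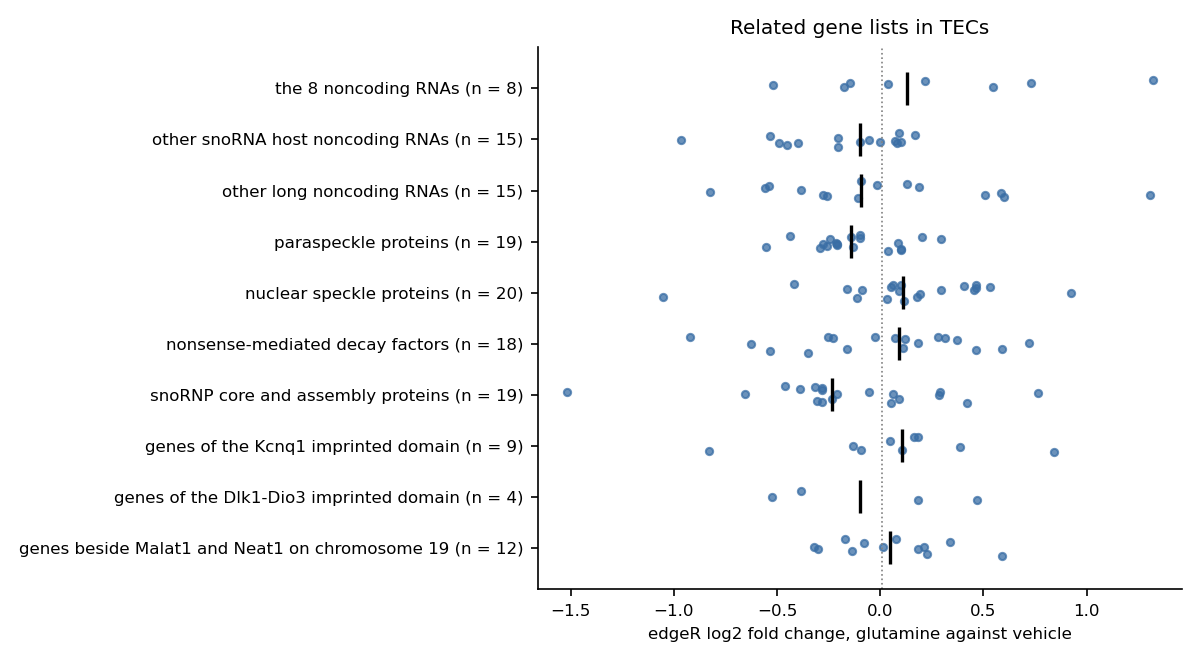
edgeR log2 fold changes in TECs, glutamine against vehicle, of the tested genes of each related list (points, n beside the name), with black bars at the list medians and a dotted line at 0.01, the median of all 14734 genes. The medians lie between -0.23 for the list of snoRNP proteins, which also holds nucleolin and Polr1a, and 0.13 for the 8 noncoding RNAs (-0.03 on library totals).

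The genes whose pattern over the 6 TEC libraries was nearest to each RNA were found among 7640 tested genes with a mean of at least 10 CPM, by the root mean square difference of log2 CPM centred on each gene's own mean. Malat1 was nearest to Pnisr, a gene of a serine- and arginine-rich nuclear speckle protein that is also in the speckle list, at 0.0457, and to the zinc finger gene Zfp617 at 0.0830. Neat1 was nearest to Kyat3, a kynurenine aminotransferase gene, at 0.155 and to the ubiquitin ligase gene Rnf149 at 0.184, which themselves had log2 fold changes of 1.18 and 1.03. Kcnq1ot1 was nearest to Hykk at 0.143 and Zfp369 at 0.146. For the snoRNA hosts the nearest genes were Denr, a factor in translation reinitiation, and Pttg1 for Gas5 (0.0209 and 0.0461), Ddx39b for Snhg1 (0.0570), Ykt6 and Mmadhc for Snhg8 (0.0443 and 0.0507) and Sun2 and Dek for Snhg12 (0.0580 and 0.0630). Meg3 had no near neighbour, with Zfp512 at 0.470. The 6 libraries include both treatment groups, so an RNA with a group difference is matched to genes with the same difference.

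Markers of other cells were set beside Neat1, whose groups separated in both cell types. In TECs the summed neutrophil markers ranged from 102 to 269 CPM with vehicle and from 112 to 236 CPM with glutamine, those of other leukocytes from 60.6 to 112 and from 78.3 to 152 CPM, those of endothelium and stroma from 254 to 384 and from 219 to 314 CPM, and those of red cells and platelets from 883 to 4364 and from 925 to 6211 CPM. These ranges overlapped. In the edgeR fit, 5 of 6 tested neutrophil markers and 8 of 10 leukocyte markers had a positive log2 fold change, with medians of 0.59 and 0.71, as had 5 of 7 red cell and platelet markers (median 0.49), 4 of 10 endothelial and stromal markers (median -0.08) and 13 of 16 tubular markers (median 0.29). On library totals these counts were 4 of 6 neutrophil, 8 of 10 leukocyte, 4 of 10 endothelial and stromal and 11 of 16 tubular markers. Beside 5.61% of all TEC genes higher and 15.4% lower without overlap, there were 0 of 6 tested neutrophil, 2 of 10 leukocyte (Lyz2 and Ptprc, the latter at up to 2.57 CPM) and 0 of 7 red cell and platelet markers higher and 1 of 10 endothelial and stromal markers lower without overlap of the groups. Lyz2 and Ptprc are not particular to leukocytes other than neutrophils, and in the PMN libraries they stood at 2395 to 5082 and 317 to 1134 CPM. These 2 genes therefore do not tell neutrophils from other leukocytes, in TECs or in PMN. The neutrophil genes S100a8, S100a9 and Retnlg reached 98.4, 61.9 and 18.2 CPM in TEC glutamine replicate 2, the library with the highest Neat1 level, and 74.5, 71.1 and 26.0 CPM in a vehicle library, while Ly6g was between 0.101 and 1.67 CPM in TECs, highest in that same glutamine library, against 48.5 to 172 CPM in PMN. Elane was at 0 in every TEC library, but in PMN it was also at 0 in some libraries and reached at most 42.8 CPM. Among the 16 tubular markers, 5 were higher and 1 lower by unadjusted p below 0.05 in edgeR, beside 12.7% of all TEC genes in either direction, and 3 were higher without overlap (Slc5a2, Slc12a1 and Calb1) and 1 lower, Havcr1, the gene of the injury marker KIM-1, at 868, 590 and 105 CPM with vehicle and 90.3, 45.6 and 24.6 CPM with glutamine. In PMN the summed neutrophil markers ranged from 30789 to 53606 CPM with vehicle and from 21761 to 65846 CPM with glutamine, and those of other leukocytes from 11888 to 23488 and from 11650 to 26820 CPM. Those of endothelium and stroma ranged from 26.0 to 1524 and from 14.9 to 77.4 CPM. In the edgeR fit, 11 of 12 leukocyte markers (median 0.49) and 6 of 10 neutrophil markers (median 0.19) had a positive log2 fold change, 5 of 8 tubular (median 0.55) and 5 of 6 red cell and platelet markers (median 1.15) likewise, and 3 of 3 endothelial and stromal markers a negative one, with Cdh5 lower without overlap. By single markers, beside 5.65% of all PMN genes, 1 of 10 tested neutrophil and 3 of 12 leukocyte markers were higher without overlap, among them Mmp9, a neutrophil gelatinase gene, at 532 to 555 CPM with vehicle against 761 to 1288 CPM, Ptprc at 317 to 576 against 679 to 1134 CPM, and the B cell gene Cd79b at 0 CPM in all vehicle libraries against 23.6 ± 4.55 CPM with glutamine (SD, n = 3). The part of cell make-up and of tubular state in the Neat1 values was not tested.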

How the data were processed

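RNA of TECs and blood PMN (3 glutamine and 3 vehicle libraries each) was reverse transcribed from the poly(A) tail and sequenced to 50 bases, a length that the paper states for the sorted TECs. Per the submitters' processing notes, Trim Galore 0.6.4, Salmon 1.0.0, FastQC, MultiQC and DESeq2 were used with mm10. What the authors deposited are estimated counts for each gene symbol with no normalization. The PMN table had passed through a spreadsheet, with extra points in 3.20% of its cells and dates in 0.391%. Of several points the last was kept as the decimal sign, and dates were reverted to the numbers they came from, with an error below 1 count. The 2 deposited columns of a PMN library (r from 0.99865 to 0.998883 on log2(CPM + 1), against 0.775 to 0.835 between libraries) were averaged to 1 replicate. Their names differ only in a final 1 or 2, and whether they are repeat runs or the 2 ends of paired reads is not known here.

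Estimated counts were rounded and fitted per cell type over all genes with edgeR 4.0.16 in R 4.3.3 (quasi-likelihood test, TMM, filterByExpr, Benjamini-Hochberg threshold 0.05). Limma 3.58.1, DESeq2 1.42.0, other scalings, filters and left-out libraries were alternatives. Standard errors were taken from the fold change and the F statistic. CPM are shares of unrounded library totals, compared by exact permutation tests. The code was tested on simulated data. No column was left unused. Positions and transcripts are GENCODE M21 on GRCm38, and promoter windows are RefSeq's on GRCm38.p6, matched by symbol. The RNAs and the gene lists were chosen with earlier results of these data known. Named are the 8 RNAs, per list the 3 tested genes with the highest mean CPM and any past the threshold, and 2 nearest genes per RNA. Some genes are named beyond these, by an unadjusted p, a DESeq2 call, groups without overlap, an imprinted domain or a marker level. They were chosen after their values were seen. No value of the authors' own comparisons was used. A few genes that this rule covers are not reported here.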

Additional observations from a re-analysis of the deposited data

How the results depend on the processing

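No gene passed the adjusted threshold in edgeR's main fit in TECs or PMN, and the count depended on the method. DESeq2 gave 308 genes in TECs and 237 in PMN, and edgeR without the expression filter gave 425 in TECs, while limma-voom, the other scalings and the other filters gave 0. Leaving out libraries gave 0 to 36 genes in TECs, with 36 without glutamine replicate 2 and 4 without vehicle replicate 5, and 0 in PMN. The log2 fold change of Neat1 passed with DESeq2 in TECs (1.33) and PMN (0.76) and without the filter in TECs (1.29, adjusted p = 5.43e-05 in edgeR's quasi-likelihood test). It stayed between 1.11 and 1.53 in TECs and between 0.73 and 0.93 in PMN under the alternatives run. Kcnq1ot1 kept its direction in all of them, and so did Malat1 and Gas5 in TECs. Directions turned for Snhg1 in TECs on library totals (-0.12), without vehicle replicate 3 (-0.04) and without glutamine replicate 3 (-0.11; range over libraries left out -0.11 to 0.14), and as a share of counts without predicted, Rik, sensory receptor and mitochondrially encoded genes (a difference of 1.51 CPM). On that same share in TECs the difference of Malat1 was 13058 CPM against 7173 of all counts (exact permutation p = 0.3 in both), that of Kcnq1ot1 66.2 against 38.9 CPM (exact permutation p = 0.1 against 0.3) and that of Snhg12 8.84 against 1.81 CPM (exact permutation p = 0.1 against 0.5), with fewer counts in the denominator. With libraries left out in turn, these differences of all counts ranged from 3718 to 12035 CPM for Malat1, from 19.8 to 55.7 CPM for Kcnq1ot1 and from 0.587 to 3.87 CPM for Snhg12, the lowest without glutamine replicate 1 in each and the highest without glutamine replicate 3, or 2 for Kcnq1ot1. Directions also turned for Snhg8 in TECs without vehicle replicate 4 (0.015; range -0.37 to 0.015), for Malat1 in PMN without glutamine replicate 2 (-0.070 and -251 CPM; ranges -0.070 to 0.30 and -251 to 1116 CPM), and for Gas5 in PMN without vehicle replicate 1 (-0.0015 and -1.87 CPM; ranges -0.0015 to 0.51 and -1.87 to 56.3 CPM). The cause was not tested. No paired analysis was possible because vehicle and glutamine TEC libraries have a single replicate number in common and the PMN numbers were given in accession order. Depth limits the low RNAs: Meg3 in TECs rests on 6 to 67 counts per library.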
